A study of Mus musculus with 12 samples.

Results

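The genes described here encode the proteins of the cytosolic ribosome. They were chosen by name: protein-coding genes called Rpl or Rps followed by a digit, with Rplp0, Rplp1, Rplp2 and Rpsa, and without the Rps6k kinases. The rule found 94 of the 53465 genes in the table, namely 31 genes of the small (40S) subunit, 46 of the large (60S) subunit, 7 paralogues of such genes (for example Rpl22l1), 9 copies annotated as protein-coding (for example Rpl27-ps3) and Rps19bp1, which encodes a binding partner of the S19 protein. RNA-seq was performed on LSKs, the Lin- Sca-1+ c-Kit+ bone marrow fraction that holds hematopoietic stem cells and multipotent progenitors, sorted by flow cytometry after lineage depletion. There were 4 groups of 3 libraries: Tespa1+/+ mice (littermates by the sample labels) and Tespa1-/- mice, each either untreated or given 5-fluorouracil (5-FU), a pyrimidine analogue that kills dividing cells, as 1 intraperitoneal injection of 150 mg/kg and sampled on day 9. The Tespa1-/- allele (B6.129S-Tespa1tm1Smoc) is a knockout line crossed onto C57BL/6 for more than 6 generations, and the mice were males aged 8 to 10 weeks. The sources used here name neither the mouse behind each replicate nor any pooling, and p-values measure the spread between these samples, which may be technical.

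Ribosomal proteins are made in near-equal numbers, since each ribosome holds a single copy of almost every one of them. Their mRNAs begin with a 5' terminal oligopyrimidine (TOP) tract, through which the kinase complex mTORC1 and the repressor LARP1 control their translation, so the mRNA level is only part of their regulation. Hematopoiesis is sensitive to their dose: loss of a single copy of several of these genes causes Diamond-Blackfan anaemia, and stem cells keep protein synthesis low. Ribosomal protein genes have also left many processed pseudogenes in the mouse genome, and 283 pseudogenes carry a name that fits the same pattern.

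The deleted gene was checked first. In CPM, the count scaled to a common library size, untreated Tespa1+/+ LSKs had Tespa1 at 49.8, 43.0 and 46.5 and untreated Tespa1-/- LSKs at 34.5, 35.0 and 34.9. After 5-FU the values were 47.2, 55.1 and 57.5 for Tespa1+/+ and 20.8, 19.8 and 17.3 for Tespa1-/-. Every Tespa1-/- library was below every Tespa1+/+ library, and transcripts of the gene remained in all of them. Libraries held 22118154 to 28275079 counts, which puts a floor of 3 counts at 0.106 to 0.136 CPM (counting error only). The LSK markers (Kit, Ly6a, Cd34 and 5 others, none at or under 3 counts in any group) summed to 1664–1762 CPM for untreated Tespa1+/+ and 1396–1455 for untreated Tespa1-/-. After 5-FU these sums were 1382–1451 for Tespa1+/+ and 833–914 for Tespa1-/-. Single LSK markers did not all follow the sum. With 5-FU in Tespa1+/+ LSKs, 6 of the 8 had a positive log2 fold change and 2 a negative one (median 0.199). In Tespa1-/- LSKs 1 was positive and 7 were negative (median -0.222). The Tespa1-/- group after 5-FU also held transcripts of later cells. Its 10 later neutrophil markers (S100a8, Camp, Ltf and others) summed to 1022–1026 CPM against 0.77–8.42 in the other 9 libraries, its 9 erythroid markers to 455–469 against 20.4–56.5, and its 5 progenitor granule genes (Mpo, Elane and others) to 4596–4886 against 2498–3658. Markers of other cells also moved in Tespa1+/+ LSKs with 5-FU: B cell markers from 60.7–70.2 to 265–270 CPM, megakaryocyte markers from 32.4–37.2 to 108–123, erythroid markers from 20.4–25.9 to 43.1–56.5 and basophil and mast cell markers from 9.45–12.7 to 20.1–21.4. Later neutrophil markers went from 0.77–1.36 to 3.66–8.42 CPM there. The summed progenitor granule genes were at 2531–2625 and then 2498–2703 CPM. Even so, 4 of these 5 genes were higher at an adjusted p below 0.05 (edgeR, against 3.77% of all genes tested). In Tespa1-/- LSKs with 5-FU, B cell markers went from 38.5–43.7 to 288–316 CPM, megakaryocyte markers from 61.2–63.5 to 164–170 and basophil and mast cell markers from 13.9–16.3 to 74.9–78.2. The untreated genotypes differed too: erythroid markers were at 42.02–51.45 CPM and progenitor granule genes at 3464–3658 in Tespa1-/-, against 20.4–25.9 and 2531–2625 in Tespa1+/+, and megakaryocyte, later neutrophil and monocyte and macrophage markers were higher and B cell markers lower in Tespa1-/- without overlap. Monocyte and macrophage markers were at 141–148 CPM against 95.2–117 there, and after 5-FU at 171–186 in Tespa1-/- against 93.6–119 in Tespa1+/+. These values stand beside all the comparisons below, and their part in the results was not tested. In such bulk samples, fewer cells of a type and less RNA per cell cannot be told apart.

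Start sites were searched for pyrimidine runs like those of TOP tracts. Of the 94 genes, 66 had an entry among the RefSeq promoter windows (GRCm38.p6, 250 bases before to 50 bases after the start). A run of at least 8 pyrimidines within 15 bases of the annotated start was present in 27 of the 66 (40.9%), against 13.9% of all 27025 genes with a window. The following 30-base windows, centred on the start and read 5' to 3' on the gene's strand, were picked to show such runs at genes called in a comparison below, with Rps6, the textbook substrate of S6 kinase, which was not called itself; capitals mark the longest pyrimidine run.
Rpl15 (chr14:18270972-18271001, minus strand): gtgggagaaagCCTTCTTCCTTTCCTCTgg
Rpl28 (chr7:4792950-4792979, plus strand): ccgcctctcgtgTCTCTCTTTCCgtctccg
Rpl27a (chr7:109519180-109519209, plus strand): gacttcgtgagCTCCTCCCTTTTCCCTTTC
Rpl34 (chr3:130730323-130730352, minus strand): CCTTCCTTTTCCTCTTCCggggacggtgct
Rplp2 (chr7:141447636-141447665, plus strand): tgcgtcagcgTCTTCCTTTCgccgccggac
Rps18 (chr17:33955651-33955680, minus strand): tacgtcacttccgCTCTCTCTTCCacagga
Rps24 (chr14:24490663-24490692, plus strand): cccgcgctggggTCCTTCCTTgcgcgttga
Rpl4 (chr9:64173372-64173401, plus strand): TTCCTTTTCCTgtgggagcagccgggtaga
Rps6 (chr4:86857353-86857382, minus strand): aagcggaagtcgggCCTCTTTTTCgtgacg
The run spans 17 bases at Rpl15 and 19 at Rpl27a, and only 9 at Rps24. At Rpl4 it ends before the annotated start. Most called genes with a window held no such run.

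In the whole 300-base windows, searched on both strands, CCGGAAG (the core bound by ETS-family factors such as GABP) was found in 26 of 66 genes (39.4%) against 9.93% of all genes. AAGATGGC, the YY1 motif, was found in 6 of 66 (9.09%) against 3.19%, and the E-box CACGTG in 6 (9.09%) against 8.09%. Among the 25 genes with a window that were called in at least 1 comparison below, 11 (44%) held the pyrimidine run and 12 (48%) held CCGGAAG, shares close to those of all 66. A motif match is a description of these letters, not a measured binding site.

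Many counts were assigned to near-identical copies of these genes rather than to the genes themselves. Each transcript was matched to all pseudogenes and protein-coding copies of at least 90% identity over at least 100 bases, and a gene with its matched copies is called a family below. For the 84 genes so treated, 1144 copies were matched and 1047 of them had at least 1 count. A median of 61.6% of a family's counts was assigned to copies, and copies took more than 50% in 44 families. Rps23, a protein of the decoding site, had 98.6% of its family's counts on copies, and 374500 of the 427705 counts on copies were on Rps23-ps1, whose match to it had 100% identity. The share on copies was also above 96% for Rpl9 (98.0%), Rps29 (96.6%), Rpl17 (96.5%) and Rpl36a (96.2%). At the other end, Rpl41, Rpl3l and Rpl39l had no counts on a matched copy, and the share was 0.0025% for Rps3, 0.062% for Rpl8, 0.458% for Rplp2 and 1.66% for Rpl4. The values of these last genes depend little on how reads were divided between copies.

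**Figure D1:**
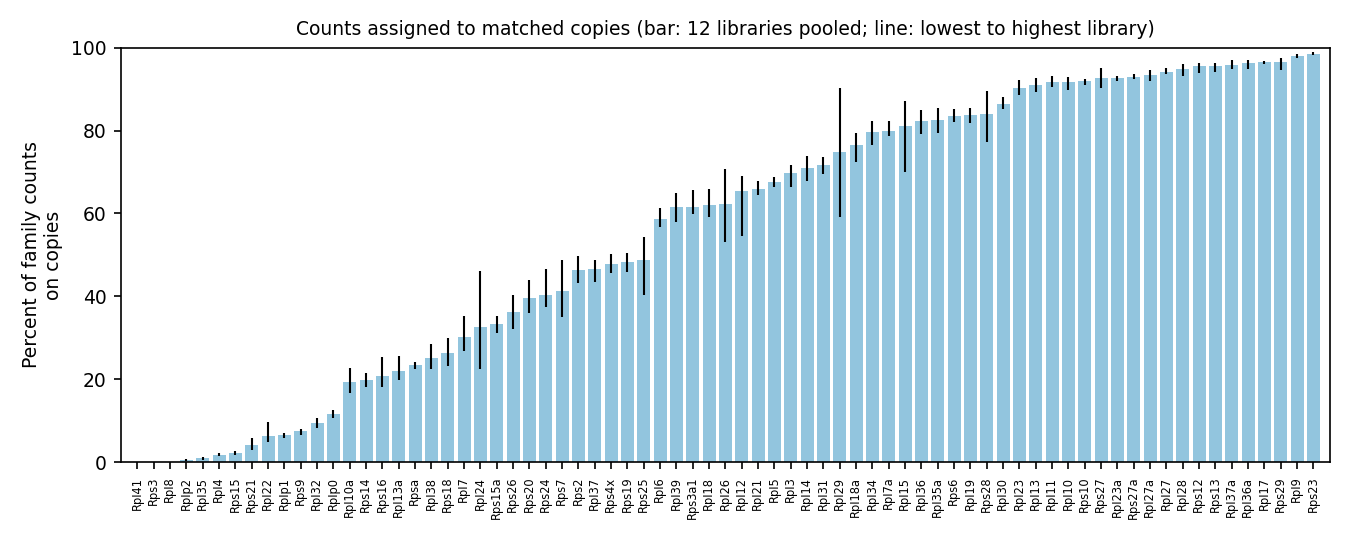
Percent of each family's counts assigned to matched copies rather than to the ribosomal protein gene itself, for 73 genes of the 40S and 60S subunits, ordered from lowest to highest. Bars are the 12 libraries pooled and lines run from the lowest to the highest library; the bars climb from 0 at Rpl41 to 98.6% at Rps23, and the line is longest at Rpl29.

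In most families this share was steady between libraries, and Rpl29 was the main exception. Rpl24 (22.5–46.2%) and Rpl26 (53.2–70.7%) also varied between libraries. Rpl29, a small protein of the 60S surface with 87 matched copies, had 63.9, 81.3 and 59.1% of its family's counts on copies for untreated Tespa1+/+ and 63.3, 70.5 and 73.2% for untreated Tespa1-/-. After 5-FU it was 86.0, 78.2 and 77.7% for Tespa1+/+ and 85.3, 77.2 and 90.3% for Tespa1-/-. Its own counts ran from 744 to 4690, and replicates of 1 group spread widely. Rpl15, a core 60S protein, had 70.1–80.3% on copies in untreated Tespa1+/+ and 80.9–87.1% in the other 9 libraries. Differences in Rpl29 and Rpl15 are therefore set beside the value for the whole family where they are first described.

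Several copies annotated as protein-coding held more counts than the gene they derive from; the CPM values here are not corrected for length. Rpl27-ps3, identical to Rpl27 over 411 bases, was at a mean of 290.6 CPM against 21.96 for Rpl27. Rps12-ps3, identical to Rps12 over 494 bases, was at 258.9 CPM against 29.3, and Rps27rt, identical to Rps27 over 341 bases, at 163.4 against 13.4. Rpl9-ps6 (71.1 CPM against 8.33) and Rpl36a-ps1 (30.5 against 15.3) followed the same order, while Rpl10-ps3 held fewer counts (15.1) than Rpl10 (55.3). Per kilobase that last order depended on the length used: Rpl10-ps3 was at 19.7 CPM per kb against 10.7 for Rpl10 on the length implied by the deposited files, and at 19.7 against 66.9 on the mRNA length. The other 3 copies, Rpl13a-ps1 (0.233 CPM), Rpl36-ps4 (0.066) and Rpl9-ps1 (0.034), were close to the floor.

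Levels of different genes were ranked per kilobase. The length implied by the deposited counts and FPKM values exceeded the union of annotated exons for 78 of the 94 genes and had a median of 3.26 times the mRNA length, so the mRNA length from GENCODE M21 was used as well. On the deposited length, the highest means over 12 libraries were those of Rplp1 (1763 CPM per kb), Rpl8 (1428), Rpl27-ps3 (612), Rpl4 (582) and Rps12-ps3 (524), and the lowest tested were those of Rpl3l (0.426), Rpl9 (0.763), Rps13 (1.19), Rps27 (4.63) and Rpl11 (4.83). On the mRNA length the 5 highest were Rplp2 (2464), Rplp1 (1763), Rpl8 (1316), Rpsa (1136) and Rplp0 (1062). Rplp0, Rplp1 and Rplp2 form the stalk that recruits elongation factors, the acidic P1 and P2 proteins being present in more than a single copy per ribosome.

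Counting copies with their gene brought the members closer together. Over the 77 genes of both subunits, the highest level was 210-fold above the lowest for the gene alone and 33.4-fold for the family, on the mRNA length, and the SD of the log2 level was 1.795 and 0.967. On the deposited length the ranges were 2311-fold and 67.9-fold.

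**Figure D2:**
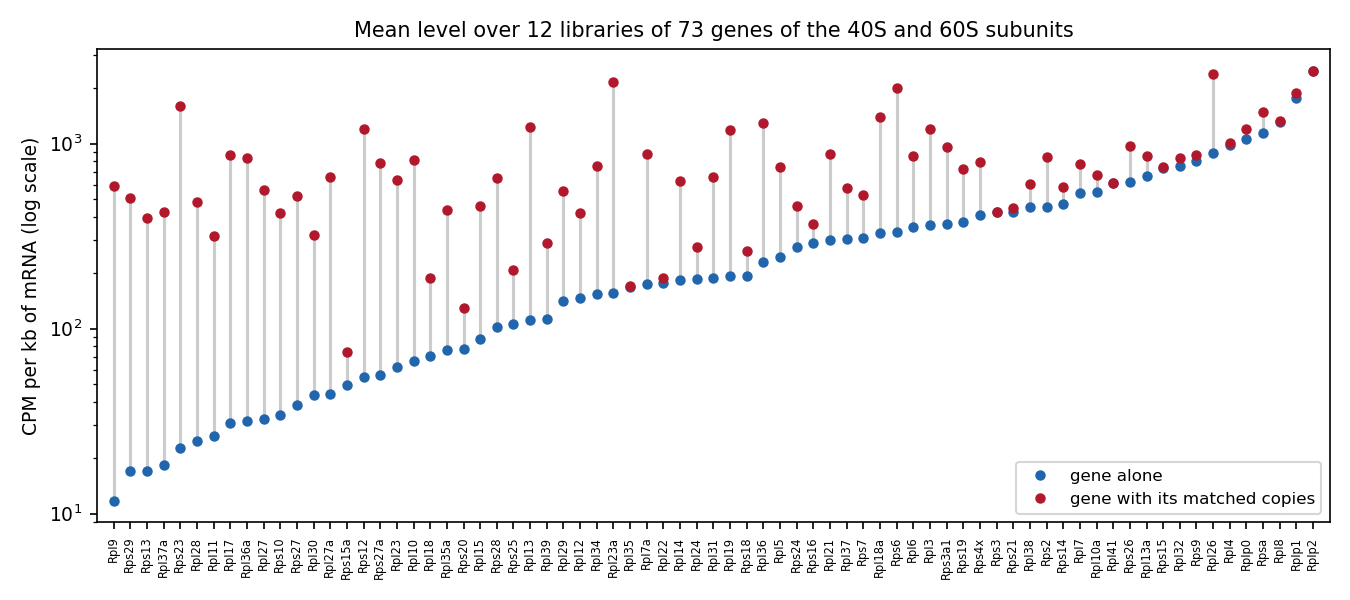
Mean level over 12 libraries in CPM per kb of mRNA (log axis) for 73 genes of the 40S and 60S subunits, for the gene alone (blue) and with its matched copies (red), ordered by the gene alone. The blue points span 11.8 to 2464 and the red points 74.2 to 2476; grey lines join the values of a gene.

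Together, the 94 genes took less of the transcriptome after 5-FU in both genotypes. Their share of each library's counts was 2.61, 2.52 and 2.59% in untreated Tespa1+/+ LSKs and 2.44, 2.39 and 2.40% after 5-FU. In Tespa1-/- LSKs it was 2.57, 2.56 and 2.58% untreated and 2.41, 2.44 and 2.37% after 5-FU. All 6 libraries after 5-FU lay below all 6 untreated libraries, and the genotypes overlapped under both conditions. The mean after 5-FU was 0.937 times the untreated mean in both genotypes (2.57% ± 0.047 to 2.41% ± 0.026 in Tespa1+/+, 2.57% ± 0.0065 to 2.41% ± 0.031 in Tespa1-/-, SD, n = 3). The 40S genes went from 0.980 to 0.899% in Tespa1+/+ and from 0.982 to 0.915% in Tespa1-/-, and the 60S genes from 1.48 to 1.41% and from 1.48 to 1.39%. With matched copies the share was 5.33–5.49% and 5.45–5.47% in untreated Tespa1+/+ and Tespa1-/- libraries and 5.09–5.18% and 5.03–5.07% after 5-FU, where the genotypes then did not overlap. The comparison of genotypes depended on the denominator: as a share of protein-coding counts, untreated libraries were at 3.47–3.57% in Tespa1+/+ and 3.66–3.71% in Tespa1-/-, without overlap, and treated ones at 3.34–3.41% and 3.36–3.42%. The ratios after 5-FU were then 0.953 in Tespa1+/+ and 0.921 in Tespa1-/-. Other abundant transcripts moved with the groups. The mean share of Rpph1, the RNA of RNase P, went from 0.424 to 1.22% of counts in Tespa1+/+ and from 0.806 to 1.11% in Tespa1-/-, that of Malat1, a nuclear RNA, from 0.960 to 0.818% and from 0.893 to 0.684%, and that of mitochondrial genes from 9.97 to 9.54% and from 9.46 to 8.52%. Gm26917, the long noncoding RNA with the most counts, was at 6.13–6.43% untreated and 6.19–6.42% after 5-FU in Tespa1+/+ libraries. In Tespa1-/- libraries it was at 7.44–7.88% and 8.10–8.41%. Rn7s1 was at 1.13–1.23% in untreated Tespa1+/+ and 1.76–1.87% in untreated Tespa1-/- libraries. The part of these transcripts in the result was not tested.

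**Figure D3:**
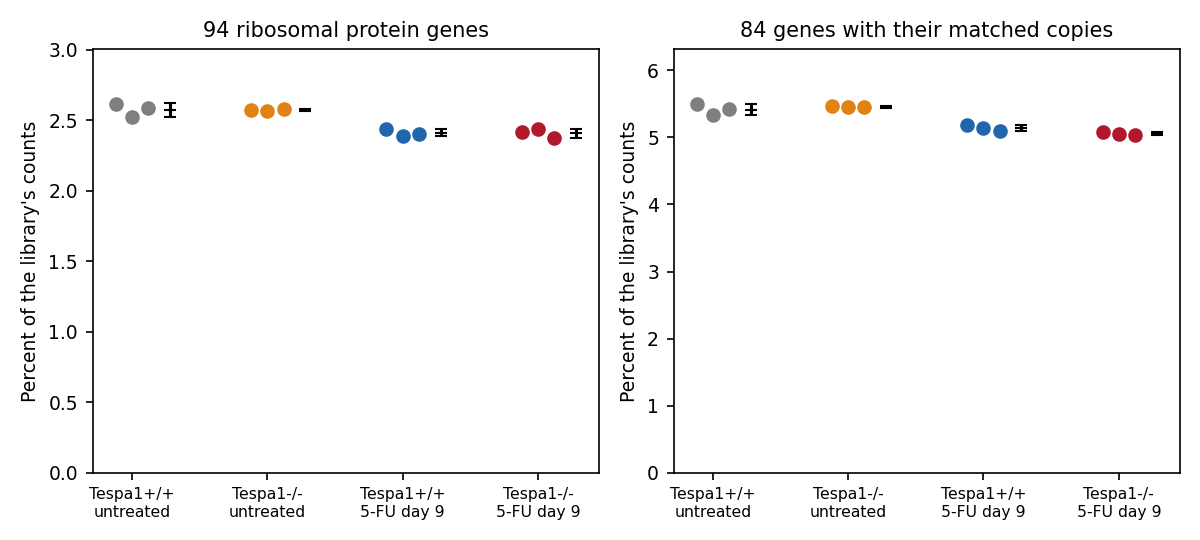
Percent of each library's counts on the 94 ribosomal protein genes (left) and on 84 genes with their matched copies (right). Points are libraries and black bars the group mean with its SD (n = 3); in both panels the 6 libraries after 5-FU lie below the 6 untreated ones.

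The first gene-level comparison asked how the 5-FU challenge altered these mRNAs in Tespa1+/+ LSKs. Of the 89 genes tested, 12 fell (13.5%, against 4.18% of all genes tested called lower) and 0 rose (against 3.77%) at an adjusted p below 0.05 (edgeR quasi-likelihood test with Benjamini-Hochberg adjustment over all genes). At an unadjusted p below 0.05, 36 were lower (background 10.8%) and 1 higher (background 10.6%), and DESeq2 called 19 lower (background 6.23%) and 0 higher (background 5.9%). The median log2 fold change of the 89 genes was -0.14, against 0.01 for all genes tested, and 77 of the 89 were negative. In 36 genes (40.4%) every treated library lay below every untreated one, against 14.4% of all genes, and in 0 above, against 14%. The 40S subunit held 8 of the 12 (of 31 tested) and the 60S subunit 4 (of 46).

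The genes with the largest falls were partly those with many copies. Rpl15 was at 118.6, 86.1 and 161.2 CPM untreated and at 44.8, 72.0 and 64.4 after 5-FU, a log2 fold change of -1.01 ± 0.23 (SE, adjusted p = 0.0285), and its family fell by 0.42 (adjusted p = 0.0202). Rpl28, a 60S protein, was at 33.0, 28.7 and 27.1 CPM and then 18.4, 17.7 and 20.4 (log2 fold change -0.65 ± 0.14, adjusted p = 0.0200), while the value for its family was -0.18 (adjusted p = 0.0537). Rpl10, which joins the 60S subunit last and completes the peptidyl transferase centre, went from 59.0, 74.3 and 75.2 CPM to 48.7, 48.3 and 44.7 (-0.56 ± 0.11, adjusted p = 0.0169; family -0.22, adjusted p = 0.0114). In each of these 3 genes the untreated and treated libraries did not overlap. Rps12 (-0.56) and Rps20 (-0.44), a protein of the 40S head, completed the 5 largest falls. For the Rps12 family the value was -0.20 with an adjusted p of 0.0516, and the Rpl28 and Rps12 calls were lost with named copies summed.

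Smaller but tighter falls were seen in Rpl4 and Rps3, which had few counts on copies. Rpl4, a 60S protein reaching into the exit tunnel, was at 1664, 1675 and 1679 CPM untreated and at 1442, 1412 and 1414 after 5-FU (-0.23 ± 0.026, adjusted p = 0.000891). Rps3, at the mRNA entry site of the 40S subunit, was at 873.9, 873.3 and 879.6 CPM and then 755.0, 744.5 and 730.8 (-0.23 ± 0.034, adjusted p = 0.00322). In both the groups were far apart relative to the spread between replicates, and they were the only 2 of the 12 still called whichever library was left out; the count of falls was then between 3 (without Tespa1+/+ 5-FU replicate 2 or 3) and 14. Rps16 (-0.32), Rps24 (-0.22) and Rpsa (-0.11) were also among the genes called. Copies held 20.7, 40.3 and 23.4% of their family's counts. With families summed, an alternative chosen after seeing the data, 23 of 82 fell (background 4.47%) and 0 rose (background 3.85%).

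In Tespa1-/- LSKs the same question gave 26 falls (29.2% of 89 genes tested, against 8.64% of all genes tested called lower) and 0 rises (against 10.7%). At an unadjusted p below 0.05, 40 were lower (background 15.4%) and 3 higher (background 17%), and DESeq2 called 28 lower (background 10.3%) and 0 higher (background 12.2%). The median log2 fold change was -0.15, against -0.01 for all genes tested, and 73 of 89 were negative. Treated libraries lay wholly below untreated ones in 39 genes (43.8%, against 18.2% of all genes) and wholly above in 3 (3.37%, against 20.3%). The falls comprised 10 of 31 genes of the 40S subunit, 14 of 46 of the 60S subunit and the copies Rps12-ps3 and Rpl27-ps3. With families summed there were 37 falls of 82 (background 8.77%) and 1 rise (background 10.9%), that of Rps2 (0.17, adjusted p = 0.0053).

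Rpl39, a small protein lining the exit tunnel, fell most: 74.7, 79.8 and 78.7 CPM untreated and 55.1, 49.8 and 54.8 after 5-FU, a log2 fold change of -0.56 ± 0.070 (adjusted p = 0.000816; family -0.47, adjusted p = 0.000411). Rps24, a 40S protein mutated in Diamond-Blackfan anaemia, was at 457.1, 476.5 and 451.4 CPM and then 372.9, 358.7 and 333.8 (-0.39 ± 0.049, adjusted p = 0.000773). Rpl32 went from 569.6, 550.9 and 552.9 CPM to 471.5, 462.5 and 476.0 (-0.26 ± 0.035, adjusted p = 0.00119). The groups did not overlap in any of the 3. Rps19, the gene most often mutated in Diamond-Blackfan anaemia, was at 294.9, 296.3 and 282.2 CPM and then 245.8, 250.7 and 254.1 (-0.23 ± 0.043, adjusted p = 0.00627), and Rps3 at 869.6, 857.4 and 869.5 and then 744.1, 768.0 and 754.1 (-0.21 ± 0.029, adjusted p = 0.00137). Rps12 (-0.49, groups overlapping, adjusted p = 0.0491), Rpl17 (-0.40) and Rpl10 (-0.37) were the others among the 5 largest falls. Copies held 95.5, 96.5 and 91.8% of the counts of these families, which fell by less than the genes alone. Family means went from 715.7 to 639.6 CPM for Rps12, from 959.5 to 829.1 for Rpl17 and from 703.1 to 638.4 for Rpl10. The remaining calls included, among 40S genes, Rps4x and Rps15a (both -0.34), Rps18 (-0.33) and Rps7 (-0.30), and among 60S genes Rpl34, Rpl27a, Rpl36, Rpl21, Rpl37, Rpl12, Rpl3, Rpl6, Rpl10a and Rpl4, from -0.32 to -0.15.

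Leaving out 1 library at a time kept 12 of these 26 calls in every fit, among them Rpl39, Rps24, Rps4x, Rpl32, Rps3, Rps15a, Rps12-ps3, Rps18, Rpl10, Rps19 and Rpl37. The count was lowest, at 13, without untreated Tespa1-/- replicate 2, and 17 without untreated Tespa1-/- replicate 3. Rpl29 had a larger value than any called gene, -1.08 ± 0.34, with an adjusted p of 0.0567, and its family was at -0.14 (adjusted p = 0.342).

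**Figure D4:**
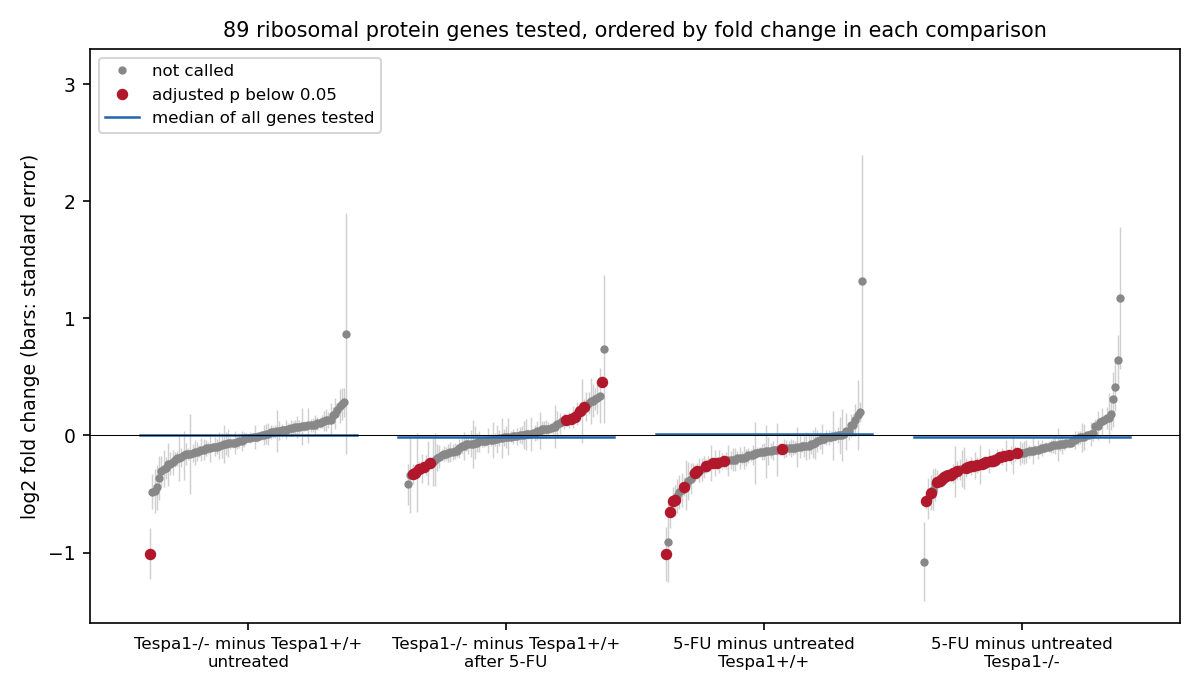
Log2 fold change of the 89 ribosomal protein genes tested in each of 4 comparisons, ordered within each comparison, with the SE as vertical lines; red points passed an adjusted p of 0.05 and blue lines are the median of all genes tested. All red points lie below 0 in both comparisons of 5-FU with untreated LSKs (12 and 26), and on both sides of it between the genotypes after 5-FU (6 above and 5 below).

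The 2 responses share no library, and 7 of 89 genes fell in both (background 2.24%), among them Rpl10, Rpl4, Rps12, Rps24 and Rps3. The 7 make up 58.3% of the genes called in Tespa1+/+ and 26.9% of those called in Tespa1-/-; for families it was 13 of 82 (background 2.41%), 56.5% and 35.1%. In 15 of the 89 genes (16.9%) all 6 libraries after 5-FU lay below all 6 untreated libraries, against 3.18% of 16101 genes tested in every comparison, and in 0 genes they lay above (3.56% of all genes). These 15 included Rps3, Rps4x, Rps18, Rps19 and Rps24 of the 40S subunit, Rpl3, Rpl4, Rpl6, Rpl9, Rpl10 and Rpl34 of the 60S subunit and Rpl27-ps3. Rps18 was at 114.3, 111.3 and 114.9 CPM and then 103.8, 92.7 and 96.9 in Tespa1+/+, and at 117.1, 127.0 and 125.4 and then 93.9, 100.2 and 101.1 in Tespa1-/-.

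The members did not fall by the same amount. Measured relative to the summed counts of all 94 genes, Rpl22 (0.34) and Rplp2 (0.15) rose and Rpl15 fell in the Tespa1+/+ response, with no other call. These were 2 higher (background on this scale 6.72%) and 1 lower (background 2.04%). In the Tespa1-/- response 6 genes rose on this scale (background 16.6%), namely Rps29 (0.75), Rps2 (0.24), Rplp2 (0.22), Rpl41 (0.19), Rpsa (0.11) and Rpl8 (0.11), and 10 fell (background 5.62%). Rplp2 went from 1077, 1050 and 1062 CPM to 1073, 1062 and 1074 in the Tespa1+/+ response, and from 1091, 1057 and 1147 to 1204, 1149 and 1232 in the Tespa1-/- response. Rps29, at 4.57–10.1 CPM in all libraries, had 96.6% of its family's counts on copies, and its family was at 0.01 (adjusted p = 0.967) in the Tespa1-/- response on the scale of all genes.

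The effect of Tespa1 loss in untreated LSKs was then examined. Of 89 genes, 1 was lower in Tespa1-/- (background 3.59%) and 0 were higher (background 1.64%); at an unadjusted p below 0.05 it was 12 lower (background 10.5%) and 5 higher (background 7.97%), and DESeq2 called 2 lower (background 5.27%) and 1 higher (background 3.1%). The median log2 fold change was -0.02 against 0.01 for all genes. The marker differences between the untreated genotypes given above stand beside this comparison. The called gene was Rpl15, at 118.6, 86.1 and 161.2 CPM in Tespa1+/+ and 57.0, 51.1 and 73.5 in Tespa1-/- (-1.01 ± 0.22, adjusted p = 0.0359). The groups did not overlap, but the call was kept only without Tespa1+/+ replicate 2 and lost without any of the other 5 libraries (adjusted p up to 0.159), and the family value was -0.28 (adjusted p = 0.106). With families summed, 0 of 82 were called in either direction (background 1.68% higher and 3.64% lower). Rpl15 is overlapped on the opposite strand by Nkiras1, and the sources used here do not state whether strand was used in counting. Without Tespa1+/+ replicate 1, the deepest library, 5 genes were called higher and 3 lower. Untreated libraries of the genotypes did not overlap in 17 genes, 10 lower (11.2%, against 13.2% of all genes) and 7 higher (7.87%, against 12.4%) in Tespa1-/-.

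After 5-FU, Tespa1-/- and Tespa1+/+ LSKs differed in 11 of 89 genes, 6 higher (6.74%, background 7.34%) and 5 lower (5.62%, background 5.78%) in Tespa1-/-, so calls were about as frequent as among all genes. The median log2 fold change was -0.01 for both. The groups did not overlap in 15 genes that were lower (16.9%, against 15.6% of all genes) and 13 that were higher (14.6%, against 17.4%). Rps2, at the mRNA entry of the 40S subunit, was at 411.4, 406.0 and 395.5 CPM in Tespa1+/+ and 555.5, 587.0 and 529.9 in Tespa1-/- (0.46 ± 0.047, adjusted p = 0.000284; family 0.39, adjusted p = 0.000111). Rpsa, the 40S protein also known as the laminin receptor precursor, was at 1828, 1819 and 1851 CPM against 2067, 2172 and 2122 (0.21 ± 0.025, adjusted p = 0.000794). Neither gene overlapped between the genotypes, and both kept their call without any 1 library. They were also the only 2 of the 89 genes with all 6 Tespa1-/- libraries above all 6 Tespa1+/+ libraries, treated and untreated (2.25%, against 1.55% of all genes), while 0 had all 6 below (against 2.04%). In untreated LSKs Rps2 was at 478.9, 418.2 and 408.5 CPM against 514.3, 508.1 and 494.0, and Rpsa at 2030, 1977 and 1947 against 2092, 2105 and 2100. Rps2 is overlapped on the opposite strand by Snhg9 and Snora78.

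The acidic stalk genes were also among those higher after 5-FU. Rplp1 was at 827.8, 805.1 and 842.6 CPM in Tespa1+/+ and 873.0, 938.7 and 926.7 in Tespa1-/- (0.14 ± 0.039, adjusted p = 0.0409), and Rplp2 at 1073, 1062 and 1074 against 1204, 1149 and 1232 (0.16 ± 0.034, adjusted p = 0.0150). Rplp0, their anchor, was at 1318, 1339 and 1363 CPM against 1376, 1531 and 1481 and was not called alone with all 6 libraries (0.12, adjusted p = 0.0761), while its family was called (0.14, adjusted p = 0.0367). The groups did not overlap in any of the 3. Rpl8 (1183, 1137 and 1134 CPM against 1275, 1273 and 1239, 0.13 ± 0.030, adjusted p = 0.0213) and Rpl19 (128.8, 129.8 and 118.8 against 142.6, 158.6 and 146.0, 0.24 ± 0.068, adjusted p = 0.0460), both core 60S proteins, completed the 6. The Rpl19 family was at 0.08 (adjusted p = 0.257). The Rpl19 call was lost whichever of the 6 libraries was left out (adjusted p = 0.0632 to 0.146), the Rplp1 call in 5 of these fits, the Rpl8 call in 4 and the Rplp2 call in 2, down to 2 higher genes without Tespa1+/+ replicate 2. The Rpl19 and Rplp1 calls were also lost with library totals, relative to the summed counts of the 94 genes, without a filter on low counts and with an offset for gene length. The Rpl8 call was lost without a filter, with that offset and with replicate number as a block. Each of these last 3 settings left 3 higher genes, as did the scale of the summed counts. With families summed, 6 of 82 were higher (background 7.57%) and 6 lower (background 5.83%).

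The 5 lower genes were Rpl39, Rps24, Rpl21, Rpl32 and Rpl22. Rpl32 was at 551.1, 588.6 and 558.6 CPM in Tespa1+/+ and 471.5, 462.5 and 476.0 in Tespa1-/- (-0.27 ± 0.042, adjusted p = 0.00273), and Rps24 at 443.7, 448.0 and 438.4 against 372.9, 358.7 and 333.8 (-0.32 ± 0.050, adjusted p = 0.00267). Both kept their call without any 1 library. Rpl39 was at 65.1, 64.1 and 71.0 CPM against 55.1, 49.8 and 54.8 (-0.33 ± 0.087, adjusted p = 0.0367), Rpl21 at 330.8, 313.0 and 335.7 against 293.1, 268.6 and 244.1 (-0.29 ± 0.068, adjusted p = 0.0238) and Rpl22, which also binds RNA outside the ribosome, at 412.0, 389.3 and 380.5 against 342.5, 320.5 and 345.7 (-0.23 ± 0.052, adjusted p = 0.0178). None of the 5 overlapped between the groups. The Rpl39 call was lost whichever library was left out (adjusted p = 0.0658 to 0.120), and also without a filter on low counts and with replicate number as a block. With a library left out, the Rpl21 call was lost in 4 of 6 fits and the Rpl22 call in 2. Only 2 lower genes remained without Tespa1+/+ replicate 1 or Tespa1-/- replicate 2. Genes of small nucleolar RNAs lie on the same strand within some of these loci, including Rpsa (Snora62), Rpl39 (Snora69) and Rps2 (Snora64). Rpl32 is overlapped on the opposite strand by Cand2. In untreated LSKs, Rps24 (-0.16, adjusted p = 0.122) and Rpl21 (-0.21, adjusted p = 0.130) were also lower in Tespa1-/- without overlap, though not called. Rpl39 (0.01), Rpl32 (-0.02) and Rpl22 (0.09) overlapped between the untreated genotypes.

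**Figure D5:**
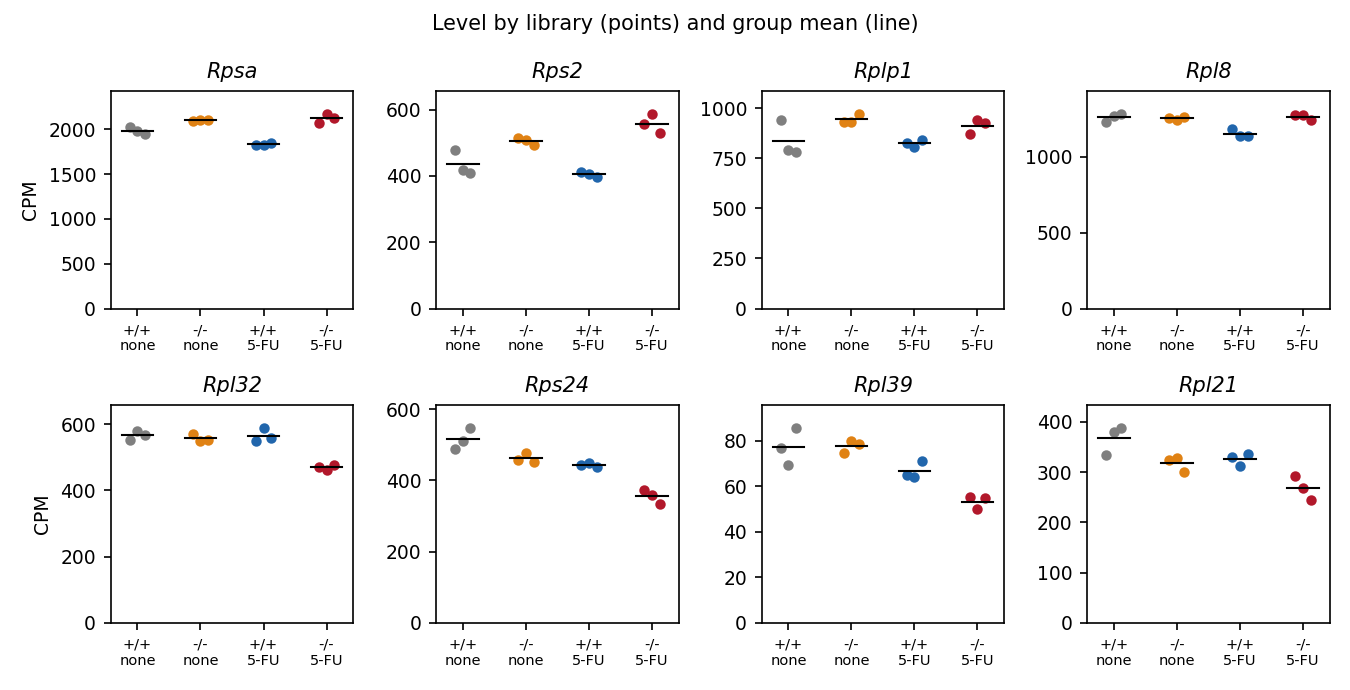
CPM per library (points) and group mean (line) of 8 genes that differed between the genotypes after 5-FU, in Tespa1+/+ and Tespa1-/- LSKs, untreated (none) and at day 9 after 5-FU; axes start at 0. The 6 Tespa1-/- libraries of Rpsa and Rps2 lie above the 6 Tespa1+/+ libraries, and the 3 Tespa1-/- libraries after 5-FU are the lowest of all 12 for Rpl32, Rps24, Rpl39 and Rpl21.

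Across all 12 libraries, 13 genes (14.6%, against 6.78% of all genes) had their 3 lowest values in Tespa1-/- LSKs after 5-FU, among them Rps4x, Rps15a, Rps24 and Rps27 of the 40S subunit and Rpl12, Rpl17, Rpl21, Rpl31, Rpl32, Rpl34, Rpl36 and Rpl39 of the 60S subunit. Rplp2 and Rps2 had their 3 highest values there (2.25%, against 9.22%). Tespa1+/+ LSKs after 5-FU held the 3 lowest values of Rpl8, Rpl11, Rpl19, Rps12, Rps23 and Rpsa (6.74%, against 2.29%) and the 3 highest of 0 genes (against 3.02%). These are values of the genes alone. With copies, treated Tespa1+/+ libraries overlapped treated Tespa1-/- libraries for Rpl11, Rpl19 and Rps23, whose families had 91.7, 83.8 and 98.6% of counts on copies. Untreated Tespa1+/+ LSKs held the 3 highest values of Rpl4, Rpl7a, Rpl15, Rpl28, Rps3, Rps24 and Rps27 (7.87%, against 5.78%) and the 3 lowest of 0 (against 3.32%), and untreated Tespa1-/- LSKs the 3 highest of Rpl10a, Rpl27, Rps18 and Rps19 (4.49%, against 1.55%) and the 3 lowest of Rps29 (against 1.66%).

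The interaction of genotype and 5-FU tested whether the responses differed. It was called for 2 of 89 genes, Rpsa (1 higher, background 3.02%) and Rpl32 (1 lower, background 1.99%). Rpl32 had a log2 response of -8.06e-05 in Tespa1+/+, where it was at 552.4, 579.5 and 568.0 CPM untreated and 551.1, 588.6 and 558.6 after 5-FU, and of -0.26 in Tespa1-/-, a difference of -0.25 ± 0.052 (adjusted p = 0.0152). Rpsa had a response of -0.11 in Tespa1+/+ and 0.0040 in Tespa1-/-, a difference of 0.13 ± 0.033 (adjusted p = 0.0396). The Rpsa call was lost in 10 of 12 fits with a library left out (adjusted p up to 0.136) and the Rpl32 call in 1, without untreated Tespa1-/- replicate 1 (adjusted p = 0.0504). The Rpsa call was also lost with library totals, relative to the summed counts of the 94 genes, by DESeq2, without a filter on low counts, with at least 10 counts required in every library and with named copies summed, and the Rpl32 call without a filter. With families summed, Rps2 was called as well (0.26, adjusted p = 0.00327), making 2 higher (background 3.09%) and 1 lower (background 2.02%).

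Few of these genes changed by much. By the thresholds of the study, a fold change over 1.5 with an unadjusted p under 0.05, Rpl15, Rpl28 and Rpl29 were lower in the Tespa1+/+ response (background 3.54% lower and 6.33% higher), and Rpl29 was lower and Rps29 higher in the Tespa1-/- response (background 6.58% and 7.78%). Rpl15 was lower in untreated Tespa1-/- LSKs (background 3.2% lower and 3.54% higher), and 0 genes passed between the genotypes after 5-FU (background 5.94% lower and 5.79% higher). The interaction passed these thresholds for Rpl15 and Rps29, both higher (background 4.16%), and for 0 lower (background 6.23%). These are genes with most of their family's counts on copies. The family values were -0.15 (adjusted p = 0.438) for Rpl29 in the Tespa1+/+ response, and 0.24 (adjusted p = 0.255) for Rpl15 and 0.41 (adjusted p = 0.0916) for Rps29 in the interaction.

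By their known roles, the members gave a mixed picture. Rpl5 and Rpl11 form with 5S rRNA the particle that stabilises p53 when ribosome assembly fails. Neither was called: Rpl5 stayed between 464.7 and 530.4 CPM and Rpl11, with 91.7% of its family's counts on copies, between 17.5 and 25.4. Rps6 was between 241.7 and 318.2 CPM and was not called alone, while its family fell in the Tespa1-/- response (-0.19, adjusted p = 0.000607), as did those of Rpl5 (-0.10, adjusted p = 0.0230) and Rpl35a (-0.31, adjusted p = 0.00288). Of the 22 genes linked to Diamond-Blackfan anaemia or the 5q- syndrome, 3 fell in the Tespa1+/+ response (Rpl15, Rps20 and Rps24, against 4.18% of all genes), 4 in the Tespa1-/- response (Rps24, Rps19, Rps7 and Rps15a, against 8.64%), 1 was lower in untreated (Rpl15, against 3.59%) and 1 in treated Tespa1-/- LSKs (Rps24, against 5.78%), and 0 were higher by edgeR. Their median log2 fold changes were -0.14 and -0.16 in the responses. Rps14, the 5q- gene, was at 268.0–345.0 CPM without a call, and Rps26 was not called either.

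Of the 7 paralogues, 5 could be tested and 0 were called in any of the 5 comparisons. Rpl22l1, which Rpl22 represses in other settings, was at 54.2–80.0 CPM while Rpl22 was at 297.5–412.0. Rpl7l1 was at 72.2–85.7 CPM, Rpl36al at 45.5–66.5, Rps27l, a p53 target, at 20.04–28.8, and the muscle paralogue Rpl3l at 0 to 2.08. The testis paralogues Rpl10l and Rpl39l stayed at or below 0.362 CPM. Rps19bp1 was at 16.9–23.1 CPM and was not called.

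Of related ribosomal genes outside the rule, Fau, which encodes a 40S protein fused to a ubiquitin-like protein, was not called, and Rack1, a scaffold on the 40S head, fell in the Tespa1-/- response (-0.13, adjusted p = 0.0385). Of 20 other genes with TOP mRNAs, 7 fell in the Tespa1+/+ response (background 4.18%) and 9 in the Tespa1-/- response (background 8.64%), with 0 rises, and medians of -0.17 and -0.14. Eef1a1, the elongation factor that delivers aminoacyl-tRNA, fell by 0.24 and by 0.29 on the log2 scale, and Tpt1 by 0.19 and by 0.40. Eef2, the translocase, fell by 0.15 in Tespa1+/+ and was at 0.02 in Tespa1-/-, a difference of 0.18 (adjusted p = 0.0069). Between the genotypes 4 of the 20 were lower in untreated Tespa1-/- LSKs (background 3.59%), and after 5-FU 4 were lower (background 5.78%) and 1, Eef2, was higher (background 7.34%).

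Of 27 initiation factors, 8 were higher (background 7.34%) and 1 lower (background 5.78%) in Tespa1-/- LSKs after 5-FU, among the higher ones Eif3a, Eif3b and Eif4g1; 5 fell in the Tespa1+/+ response (background 4.18%), and 5 rose and 3 fell in the Tespa1-/- response (background 10.7% and 8.64%). Of the 78 mitochondrial ribosomal protein genes, 0 were lower in any of the 4 comparisons (background 4.18% and 8.64% in the responses, 3.59% and 5.78% between the genotypes) and 0 were higher in the Tespa1+/+ response (background 3.77%), while 8 rose in the Tespa1-/- response and 5 were higher in Tespa1-/- after 5-FU, shares close to those of all genes (10.7% and 7.34%). Their median log2 fold changes were 0.07 and 0.11 in the responses and 0.11 and 0.17 between the genotypes, untreated and after 5-FU. Of 12 genes listed for LARP1 and the mTORC1 and S6 kinase axis, 1 rose in each response (background 3.77% and 10.7%) and 0 fell (background 4.18% and 8.64%). It was Pdcd4, an inhibitor of the helicase eIF4A (0.51 and 0.61). After 5-FU, 2 of the 12 were higher in Tespa1-/- (background 7.34%), Pdcd4 (0.23) and Larp1 (0.20), and 0 were lower (background 5.78%).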

How the data were processed

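Poly(A)-selected, strand-specific paired-end libraries were sequenced. The authors deposited counts per gene and FPKM for each library, on GRCm38; the submitters' processing notes name CASAVA 1.8, HISAT2, StringTie and edgeR. FPKM, as deposited, served only to recover the gene length the authors used. How reads mapping to several places were counted is not given in the sources used here.

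Groups were taken from the sample labels; the table's columns are named WT, KO, FWT and FKO, and F was read as 5-FU treated, the only treatment in the labels. Genes were filtered by filterByExpr and scaled by TMM, and each comparison was fitted on its 6 libraries (the interaction on all 12) with the quasi-likelihood test of edgeR 4.0.16 in R 4.3.3, adjusted over all genes tested; calls needed an adjusted p below 0.05. A count of members gets no test. Of 94 members, 89 passed the filter in each comparison; Rpl10l, Rpl39l, Rpl9-ps1, Rpl36-ps4 and Rpl13a-ps1 did not. Copies were matched with BLAST 2.17.0 against GENCODE M21 transcripts. All 94 members were found there, 83 at the same position, and 51 are overlapped by another gene, 25 of them on the opposite strand. Sequences are from RefSeq. The alternatives included DESeq2 1.42.0. Procedures were tested on simulated data.

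Members and gene lists were chosen with earlier results of these data known. Named genes were the 5 members with the largest rise and fall among calls with a mean of at least 1 CPM, the 5 highest and lowest per kilobase, paralogue pairs, and genes of fixed roles; other members were named after their values were seen. Some genes are not reported here by name; counts include them, and the plots by gene leave them out.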

Additional observations from a re-analysis of the deposited data

Results flagged for a closer look

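The 5-FU response differed between the genotypes, by the interaction term of edgeR's quasi-likelihood test, for 2 ribosomal protein genes. For Rpl32 the log2 fold change was lower by -0.246 in Tespa1-/- than in Tespa1+/+ LSKs, and all 3 Tespa1-/- libraries after 5-FU (462.5 to 476.0 CPM) lay below the other 9 libraries (550.9 to 588.6 CPM). For Rpsa it was higher by 0.129, and the 3 Tespa1+/+ libraries after 5-FU (1819 to 1851 CPM) lay below the other 9 (1947 to 2172 CPM). With 1 library left out, the Rpl32 call was lost in 1 of 12 fits (adjusted p = 0.0504) and the Rpsa call in 10 (adjusted p up to 0.136). The Rpsa call was also lost under 8 of 11 other settings and the Rpl32 call under 1. Groups of 3 are too small for a check of outlying samples.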

How the results depend on the processing

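Counts of genes called, higher and lower, moved as follows. Untreated genotype (0 and 1): DESeq2 1 and 2, all 12 libraries in 1 fit 1 higher, length offset 2 lower, families 0 lower. Genotype after 5-FU (6 and 5): 3 higher relative to the family total, without a filter, with the replicate block, and with the length offset with or without that block, and 0 and 0 at the study's thresholds (a fold change over 1.5 with an unadjusted p under 0.05). Tespa1+/+ response (0 and 12): relative to the family total 2 and 1, and lower genes numbered 19 by DESeq2, 6 with the replicate block, 7 with block and length offset, 21 in the fit of all 12 libraries, 23 for families and 3 at the study's thresholds. Tespa1-/- response (0 and 26): relative to the family total 6 and 10, library totals 2 higher, 1 higher with the block, block and length offset, all 12 libraries, named copies summed or families, and 1 and 1 at the study's thresholds (Rps29 and Rpl29). Interaction (1 and 1): 0 higher with library totals, the family total, DESeq2, no filter, 10 counts in every library, the block, block and length offset, or named copies, 2 higher for families and at the study's thresholds, and lower genes 2 by DESeq2, 0 without a filter and 0 at the study's thresholds. The share ratio (0.937 in both genotypes) was 0.953 of protein-coding counts in Tespa1+/+, and in Tespa1-/- it was 0.921 of protein-coding counts and 0.922 without the 100 most abundant other genes. The Rpsa response in Tespa1+/+ reversed relative to the family total, to 0.026 (adjusted p = 0.655). The cause was not tested in any of these.

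With 1 library left out, the counts ran from 0 to 5 higher and 0 to 3 lower (untreated genotype), 2 to 5 and 2 to 5 (genotype after 5-FU), 0 and 3 to 14 (Tespa1+/+ response), 0 to 1 and 13 to 24 (Tespa1-/- response) and 0 to 2 and 0 to 2 (interaction), and the share ratios from 0.928 to 0.944 and 0.932 to 0.943. Deviations of same-numbered libraries correlated at -0.066 to 0.029. This shows no pairing by replicate number, but groups of 3 libraries cannot exclude it. For single named genes, 571 of 672 values under other alternatives kept direction and call, and 186 of 324 did with 1 library left out, the other 138 losing the call. Families and mRNA length were chosen after seeing the data.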
